A study of Mus musculus with 24 samples.

Results

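The 10 genes described here are Trp53, which encodes the transcription factor p53, and 9 genes that p53 is known to activate: Cdkn1a, Mdm2, Perp, Ccng1, Bax, Bbc3, Zmat3, Eda2r and Phlda3. They were taken by symbol from both count tables, and each was found both in the table of shRNA libraries, with 38937 genes, and in that of siRNA libraries, with 39310. The series holds 24 RNA libraries made from mouse lung adenocarcinoma cells in culture, sorted as GFP-positive, CD45-negative tumour cells, in 6 groups of 4. In the shRNA table of 8 libraries, S/S cells carried an shRNA against Atf4 (S/S shAtf4) or a scrambled control (S/S shControl). In the siRNA table of 16 libraries, A/A and S/S cells had received an siRNA against Chchd10 or a control siRNA (A/A siChchd10, A/A siControl, S/S siChchd10 and S/S siControl). S/S cells carry wild-type eIF2α, a translation initiation factor whose phosphorylation starts the integrated stress response, and A/A cells carry a form that cannot be phosphorylated. Phosphorylated eIF2α raises translation of the transcription factor ATF4. CHCHD10 is a small protein of mitochondria. The labels give neither the Trp53 status of the cells nor the number of tumours or clones behind a culture.

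p53 is kept low by MDM2, a ubiquitin ligase, and accumulates after DNA damage and other stresses, mostly through the stability of the protein and not through more mRNA. It then activates genes that stop the cell cycle, such as Cdkn1a, and genes that promote cell death, such as Bax and Bbc3, together with its own inhibitor Mdm2. Loss of p53 is frequent in lung adenocarcinoma.

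On GRCm38, Trp53 lies on the plus strand at chr11:69580359-69591873 and Cdkn1a on the plus strand at chr17:29090976-29100727. Perp is on the plus strand at chr10:18845020-18857073 and Mdm2 on the minus strand at chr10:117688875-117710758. Ccng1 is on the minus strand at chr11:40748552-40755311, Bax on the minus strand at chr7:45461697-45466898 and Bbc3 on the plus strand at chr7:16308393-16318205. Zmat3 is on the minus strand at chr3:32334792-32366014, Eda2r on the minus strand at chrX:97333840-97377216 and Phlda3 on the plus strand at chr1:135766119-135769136.

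Promoter sequences from RefSeq (GRCm38.p6), covering 250 bases before to 50 after a gene's start, were held for 8 of the 10 genes, in 11 windows, since Bbc3 and Cdkn1a have several starts. They were searched on both strands for the p53 half-site of 10 bases. A pair of half-sites, with at most 2 mismatches outside the fixed core bases and a gap of at most 1 base, lay in 3 of the 11 windows, 1 each of 3 genes, against 0.682% of 32851 promoter windows. An exact half-site lay in 5 of the 11 windows, each of a different gene, against 8.36% of all windows. The 3 windows with a pair are shown because they hold the letters p53 is known to recognise, which stand in capitals.
Cdkn1a: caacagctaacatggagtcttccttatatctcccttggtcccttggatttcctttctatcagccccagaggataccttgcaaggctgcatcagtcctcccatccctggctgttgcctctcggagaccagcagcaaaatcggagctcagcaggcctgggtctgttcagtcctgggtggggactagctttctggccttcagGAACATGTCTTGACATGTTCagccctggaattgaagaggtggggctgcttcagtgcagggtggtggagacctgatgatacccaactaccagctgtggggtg
Ccng1: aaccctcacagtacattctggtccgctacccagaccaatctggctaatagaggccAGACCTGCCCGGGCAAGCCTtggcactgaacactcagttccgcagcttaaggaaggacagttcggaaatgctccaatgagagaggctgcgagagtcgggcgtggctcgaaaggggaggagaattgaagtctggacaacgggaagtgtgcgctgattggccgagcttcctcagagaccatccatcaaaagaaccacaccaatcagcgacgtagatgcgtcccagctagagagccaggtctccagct
Bax: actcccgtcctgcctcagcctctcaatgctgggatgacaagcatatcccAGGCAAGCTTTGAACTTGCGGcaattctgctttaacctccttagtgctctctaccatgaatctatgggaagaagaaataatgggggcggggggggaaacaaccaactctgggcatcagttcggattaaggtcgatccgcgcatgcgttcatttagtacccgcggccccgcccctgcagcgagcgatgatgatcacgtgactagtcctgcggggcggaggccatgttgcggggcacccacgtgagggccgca
The Cdkn1a window is chr17:29090729-29091028 on the plus strand, and its pair began 51 bases before the start with 1 mismatch. The Ccng1 window is chr11:40755237-40755536 on the minus strand, with a pair 195 bases before the start and 1 mismatch. The Bax window is chr7:45466849-45467148 on the minus strand, with a pair 201 bases before the start, 2 mismatches and a gap of 1 base. A match describes letters only and is not evidence of binding.

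Library totals ran from 14.1M to 70.9M counts in the shRNA table and from 42.9M to 75.4M counts in the siRNA table. All 10 genes passed the filter on low counts in both tables, and the lowest count of any of them in a library was 71. Separate cultures behind the 4 replicates are not stated, so p-values measure the spread between these libraries, which may be technical. Atf4 averaged 271 ± 46.8 CPM (counts-per-million of the TMM-scaled library total) in S/S shAtf4 and 679 ± 173 CPM in S/S shControl (SD, n = 4 each). Chchd10 averaged 1.83 CPM in A/A siChchd10 against 8.93 CPM in A/A siControl, and 6.30 CPM in S/S siChchd10 against 42.6 CPM in S/S siControl. Eif2s1, which encodes eIF2α, averaged between 189 and 222 CPM in every group. Replicate 4 stood apart in both shRNA groups: it lay above replicates 1 to 3 in both groups for 30.4% of 14697 genes and below them in both for 29.7%. Y-linked RNAs summed to 1.46 to 3.56 CPM in S/S shAtf4 and 111 to 135 CPM in S/S shControl. In the siRNA table they summed to 288 to 380 CPM in A/A and 104 to 144 CPM in S/S libraries. RNAs that were abundant in each S/S siRNA library, but nearly missing where A/A cells had received siChchd10, stood at 6.53% to 7.73% of their S/S siControl level in A/A siControl replicate 1, against 0.161% to 1.92% in the other 3 A/A siControl libraries. The part of these differences in the results was not tested. Leukocyte markers summed to at most 1.92 CPM, endothelial markers to at most 3.10 CPM and fibroblast markers to at most 18.3 CPM in any library. Lung epithelial markers, a list that includes keratins and Cdh1 besides lung genes, summed to 4034 CPM or more. Only 6 of these 10 markers passed the filter in the shRNA table. Nkx2-1, a defining lung factor, was at 0 in both shRNA groups, and Sftpc was at 0 in S/S shControl.

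**Figure D1:**
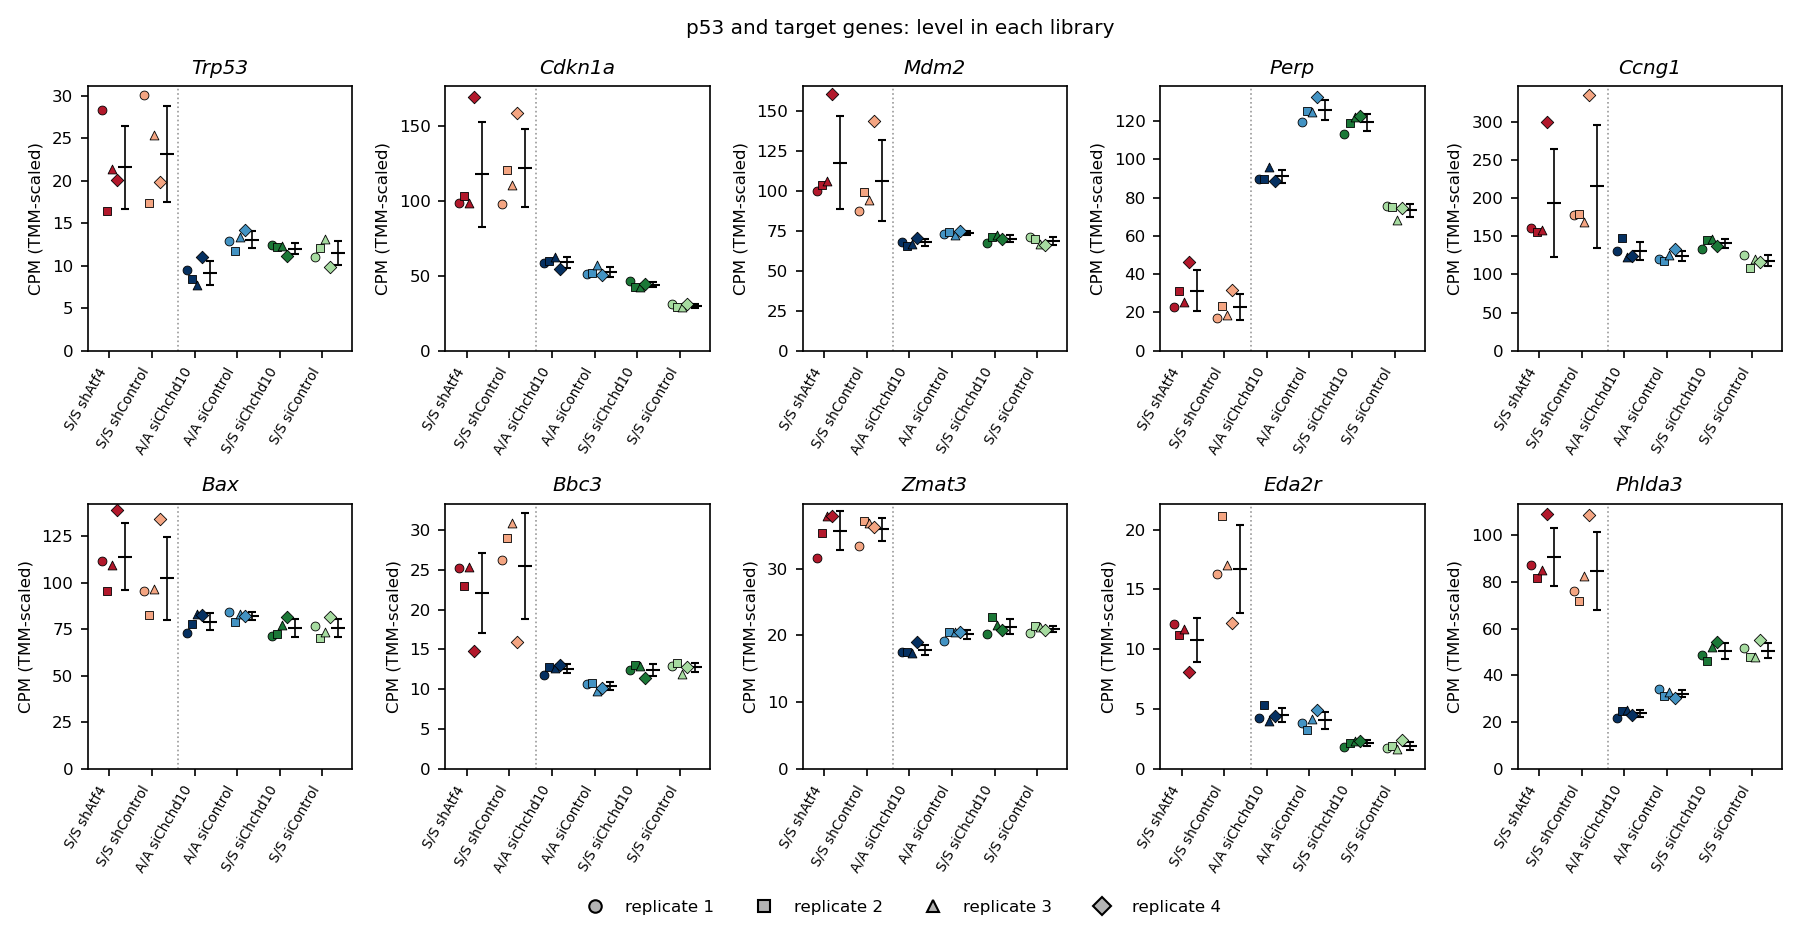
Level of each of the 10 genes in each library, in TMM-scaled CPM on a linear axis from 0; symbols mark replicate numbers, bars the mean and SD of 4 libraries, and the dotted line divides the separately scaled tables. Perp is lowest in the shRNA groups, at 17.2 to 46.4 CPM, and Cdkn1a in S/S siControl, at 28.8 to 31.2 CPM.

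Knockdown of Chchd10 was compared with the control siRNA in each genotype. In A/A cells Trp53 and 4 of its targets fell and 2 targets rose, while in S/S cells 3 targets rose and none of the 10 genes fell. Perp fell in A/A cells and rose in S/S cells. Of all 18138 genes tested, 53.7% passed in A/A cells (26.5% higher and 27.2% lower) and 28% in S/S cells (15% higher and 13% lower), so 7 of 10 and 3 of 10 are to be read against those shares. Libraries did not overlap for 1 gene that was higher and 5 that were lower in A/A cells, against 25% and 24.9% of all genes (49.9% in either direction). In S/S cells that held for 3 higher genes and 0 lower ones, against 13.7% and 11.8% (25.5% in either direction).

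Trp53 measured 9.44, 8.38, 7.72 and 11.01 CPM in A/A siChchd10 and 12.9, 11.8, 13.4 and 14.2 CPM in A/A siControl. All A/A siChchd10 libraries lay below all A/A siControl libraries. The log2 change was -0.50 (SE 0.0932, adjusted p = 5.36e-05 by the quasi-likelihood test of edgeR, adjusted by Benjamini-Hochberg over all genes, as for every adjusted p here). S/S libraries had 12.5, 12.1, 12.3 and 11.1 CPM of Trp53 with siChchd10 and 10.99, 12.1, 13.2 and 9.86 CPM with siControl, and these groups overlapped (0.06, adjusted p = 0.698). The effect in A/A minus that in S/S cells was -0.56 (adjusted p = 0.00147).

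Cdkn1a, which encodes the cyclin-dependent kinase inhibitor p21, was higher with siChchd10 in both genotypes. It measured 46.2, 42.8, 42.7 and 44.7 CPM in S/S siChchd10 and 31.2, 29.03, 28.8 and 30.98 CPM in S/S siControl, with no overlap (0.56, SE 0.0507, adjusted p = 1.44e-09). A/A libraries had 58.7, 59.8, 62.6 and 54.2 CPM with siChchd10 and 50.9, 51.9, 56.97 and 50.2 CPM with siControl. Those A/A groups overlapped, and the rise was smaller (0.16, adjusted p = 0.00573). The effects differed by -0.39, A/A minus S/S (adjusted p = 7.35e-05). A part of Cdkn1a's exons, 273 bases or 7.68%, overlaps a transcript of the opposite strand, and whether counting used strand is not given in the sources used here.

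Perp encodes a membrane protein of desmosomes that p53 activates in cell death. It measured 89.7, 90.01, 96.2 and 88.9 CPM in A/A siChchd10 and 119.7, 125, 125 and 133 CPM in A/A siControl. In S/S cells it measured 113, 119, 122 and 123 CPM with siChchd10 and 75.6, 75.4, 68.3 and 74.6 CPM with siControl. Neither pair of groups overlapped, and the directions were opposite. The log2 changes were -0.46 in A/A cells (adjusted p = 3.39e-10) and 0.70 in S/S cells (adjusted p = 3.58e-13). The difference between them was -1.16 (SE 0.0600, adjusted p = 5.55e-14), which ranked 4 by p-value among 18138 genes tested.

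Among the negative regulators, Mdm2 fell by 0.12 in A/A cells (adjusted p = 0.0112), with 68.1, 65.8, 66.8 and 70.3 CPM in A/A siChchd10 against 72.7, 74.5, 72.3 and 74.7 CPM in A/A siControl. This call ended without A/A siControl replicate 2 or 4 or A/A siChchd10 replicate 3 (adjusted p = 0.0541 to 0.0567) and without the filter on low counts (0.0816). Ccng1, which encodes cyclin G1, a partner of MDM2, rose by 0.25 in S/S cells (adjusted p = 0.000877). It measured 134, 146, 147 and 137 CPM in S/S siChchd10 and 126, 109, 121 and 117 CPM in S/S siControl. In A/A cells its change was 0.08 (adjusted p = 0.243). Phlda3 encodes an inhibitor of the kinase AKT. It measured 21.6, 24.7, 25.1 and 23.1 CPM in A/A siChchd10 and 34.1, 31.2, 33.1 and 30.4 CPM in A/A siControl, without overlap, and fell by 0.45 (adjusted p = 2.57e-07). Phlda3 changed by -0.01 in S/S cells (adjusted p = 0.955).

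Of the cell death genes, Bbc3, which encodes the BH3-only protein PUMA, rose by 0.28 in A/A cells (adjusted p = 0.000451). It measured 11.8, 12.8, 12.6 and 13.1 CPM in A/A siChchd10 and 10.7, 10.8, 9.74 and 10.2 CPM in A/A siControl, without overlap. The change of Bbc3 in S/S cells was -0.04 (adjusted p = 0.735). Bax, which encodes a protein that permeabilises the outer mitochondrial membrane, did not pass in A/A (-0.05, 95% interval -0.16 to 0.05) or S/S cells (0.00, -0.10 to 0.10). Bax shares 192 exonic bases, 12.2% of its exons, with Gm45808 on the same strand. Eda2r, a receptor of the tumour necrosis factor family, did not pass either, at 0.16 in A/A cells (adjusted p = 0.302) and 0.16 in S/S cells (adjusted p = 0.465). Zmat3, which encodes an RNA-binding zinc finger protein, fell by 0.17 in A/A cells (adjusted p = 0.00558), with 17.5, 17.5, 17.3 and 18.9 CPM in A/A siChchd10 against 19.2, 20.5, 20.5 and 20.4 CPM in A/A siControl. Its change in S/S cells was 0.03 (adjusted p = 0.769).

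The difference of the effects, A/A minus S/S, passed for 7 of 10 genes, against 35.6% of all genes. It was negative for 6 genes (18.9% of all genes) and positive for Bbc3 alone (0.32, adjusted p = 0.00648, against 16.7% of all genes). Besides Trp53, Cdkn1a and Perp, the negative ones were Phlda3 (-0.44, adjusted p = 9.49e-05), Mdm2 (-0.15, adjusted p = 0.0331) and Zmat3 (-0.20, adjusted p = 0.0332). The call for Mdm2 ended without any of 12 single libraries (adjusted p up to 0.101) and that for Zmat3 without any of 10 (up to 0.119). Both also ended with DESeq2 size factors (0.0608 for Mdm2 and 0.0505 for Zmat3) and without the filter on low counts (0.143 for Mdm2 and 0.121 for Zmat3). Ccng1 did not pass (-0.18, adjusted p = 0.0792) but did without A/A siChchd10 replicate 2 (-0.24, adjusted p = 0.00981) and without the filter on low counts (-0.17, adjusted p = 0.0445). These differences are built from the same 16 libraries as the effects within each genotype.

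**Figure D2:**
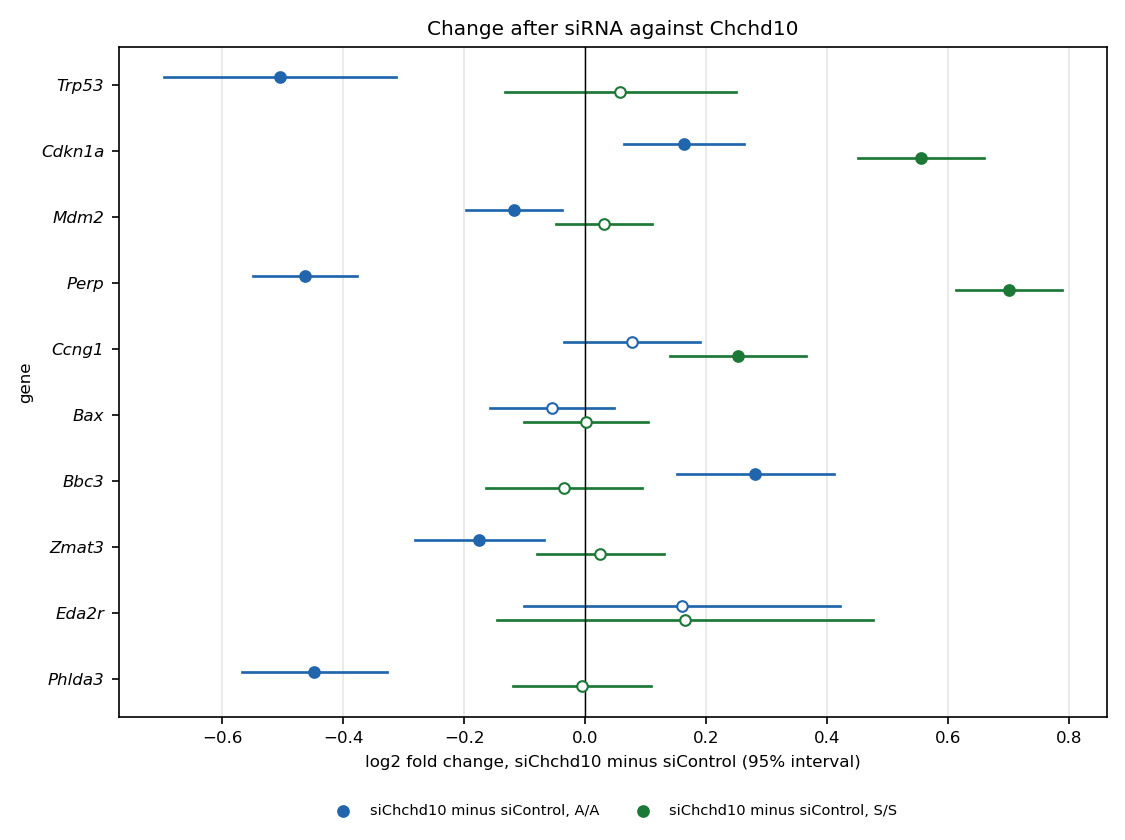
Log2 fold change of each gene after siRNA against Chchd10, siChchd10 minus siControl, in A/A cells (blue) and S/S cells (green), with 95% intervals; filled points passed an adjusted p of 0.05. Perp lies at -0.46 in A/A and 0.70 in S/S cells.

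Other genes linked to p53 were taken from lists of regulators and targets. Of 69 tested, 20 rose and 24 fell in A/A cells, and 16 rose and 12 fell in S/S cells. Over all genes the shares were 26.5% higher and 27.2% lower in A/A cells and 15% higher and 13% lower in S/S cells, and the counts of the smaller lists below are to be read against the same shares. The median change of these genes was -0.02 in A/A cells and 0.02 in S/S cells, against -0.01 and 0.00 over all genes. Among regulators, Mdm4, a relative of Mdm2 that restrains p53, fell by 0.74 in A/A cells (adjusted p = 0.000211), at 87.8 ± 12.3 CPM in A/A siChchd10 and 147 ± 7.43 CPM in A/A siControl (SD, n = 4 each). Hipk2, a kinase that phosphorylates p53, rose by 0.54 in A/A cells and fell by 0.45 in S/S cells, a difference of 0.99 (adjusted p = 2.31e-11). Of 12 cell death targets, 4 rose and 5 fell in A/A cells. Dram1, which acts in autophagy, rose by 1.70 there, to 40.7 ± 1.63 CPM in A/A siChchd10 against 12.6 ± 0.132 CPM in A/A siControl. Fas, a death receptor, rose by 1.22. In S/S cells 4 of these 12 rose and 0 fell, and Pmaip1, which encodes the BH3-only protein NOXA, rose by 0.34 there but fell by 0.25 in A/A cells, a difference of -0.59 (adjusted p = 1.26e-06). Of 8 DNA repair targets, 2 rose and 3 fell in A/A cells, and Ddb2, a damage recognition protein, fell by 0.88. In S/S cells Btg2, an antiproliferative gene, rose by 0.51, Sfn, which encodes 14-3-3 sigma, by 0.56 and Ephx1, an epoxide hydrolase, by 0.69. Other targets fell there, among them Tex15 (-1.22), Zfp365 (-0.90) and Pltp (-0.79). Of 12 targets in metabolism and redox, 4 rose and 3 fell in S/S cells, and of 13 targets outside the named classes 3 rose and 5 fell. The difference of the effects, A/A minus S/S, passed as positive for 10 and as negative for 22 of the 69 genes, with a median of -0.09, against -0.01 over all genes. Of 8 cell cycle arrest targets 0 were positive and 5 negative, among them Sfn (-0.83), against 16.7% of all genes positive and 18.9% negative.

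A/A cells were compared with S/S cells under the same siRNA. The 2 kinds of cells also differed in Y-linked RNAs (288 to 380 CPM in A/A and 104 to 144 CPM in S/S libraries). Genotype and source of the cells cannot be told apart here. With siControl, 5 of the 10 genes were higher in A/A cells and 2 lower. With siChchd10, 2 were higher and 4 lower. Over all genes 70.2% passed with siControl (35.6% higher and 34.7% lower) and 70.5% with siChchd10 (34.7% higher and 35.8% lower), so the counts of 7 and 6 genes are close to the background. With siChchd10 the libraries of 2 genes lay above and of 4 below those of S/S cells, against 31.4% and 32.3% of all genes (63.7% in either direction). With siControl this held for 4 and 2 genes, against 32.8% and 31.8% (64.6% in either direction).

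Cdkn1a was higher in A/A cells under both siRNAs, by 0.42 with siChchd10 (adjusted p = 1.36e-08) and 0.81 with siControl (adjusted p = 2.27e-14), without overlap. Eda2r measured 4.23, 5.35, 3.98 and 4.40 CPM in A/A siChchd10, against 1.77, 2.15, 2.30 and 2.30 CPM in S/S siChchd10. With siControl it measured 3.84, 3.22, 4.13 and 4.93 CPM in A/A and 1.68, 1.89, 1.67 and 2.37 CPM in S/S cells. Every A/A library exceeded every S/S library, and the log2 differences were 1.08 under both siRNAs (adjusted p = 5.41e-08 with siChchd10 and 9.70e-08 with siControl).

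Phlda3 was lower in A/A cells, at 23.6 ± 1.57 CPM in A/A siChchd10 against 50.4 ± 3.52 CPM in S/S siChchd10, and at 32.2 ± 1.67 CPM in A/A siControl against 50.6 ± 3.35 CPM in S/S siControl (SD, n = 4 each). The log2 differences were -1.09 and -0.65 (adjusted p = 4.12e-16 and 3.51e-11). Perp was 0.39 lower in A/A cells with siChchd10 (adjusted p = 2.58e-09) and 0.77 higher with siControl (adjusted p = 1.28e-15). Perp in A/A siControl, at 126 ± 5.28 CPM, was near S/S siChchd10, at 119 ± 4.30 CPM, and these 2 groups were not tested against each other. Trp53 was 0.38 lower with siChchd10 (adjusted p = 0.000701), and with siControl its difference of 0.18 did not pass (adjusted p = 0.0876), although it did without S/S siControl replicate 3 (adjusted p = 0.0231), without A/A siControl replicate 2 (0.0423) and without the filter on low counts (0.0347).

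With siControl, Bbc3 was 0.30 lower in A/A cells (adjusted p = 0.000148), and with siChchd10 it did not pass (0.02, adjusted p = 0.806). Zmat3 was 0.26 lower with siChchd10 (adjusted p = 6.93e-05) and did not pass with siControl (-0.06, adjusted p = 0.338). Mdm2 and Bax were higher with siControl by 0.10 (adjusted p = 0.0238) and 0.12 (adjusted p = 0.0331), and both calls ended with DESeq2 size factors (0.0578 and 0.0645). The Mdm2 call ended without the filter on low counts (0.0725) and the Bax call with the DESeq2 test (0.0781). With siChchd10 Mdm2 did not pass (-0.05, adjusted p = 0.250), and neither did Bax (0.07, adjusted p = 0.247), which passed without S/S siChchd10 replicate 4 (adjusted p = 0.0426) or A/A siChchd10 replicate 1 (0.0419). The Mdm2 call also ended without S/S siControl replicate 3 or 4, and the Bax call without S/S siControl replicate 2 or 3 or A/A siControl replicate 1 or 3. Ccng1 did not pass under siChchd10 (-0.10, adjusted p = 0.0990) or siControl (0.07, adjusted p = 0.232), but was lower under siChchd10 without A/A siChchd10 replicate 2 (-0.16, adjusted p = 0.00624). Leaving out A/A siControl replicate 1, the library with the S/S-abundant RNAs, ended 2 calls among the 10 genes, that of Bax here (adjusted p = 0.0711) and that of the Mdm2 difference (0.0556).

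**Figure D3:**
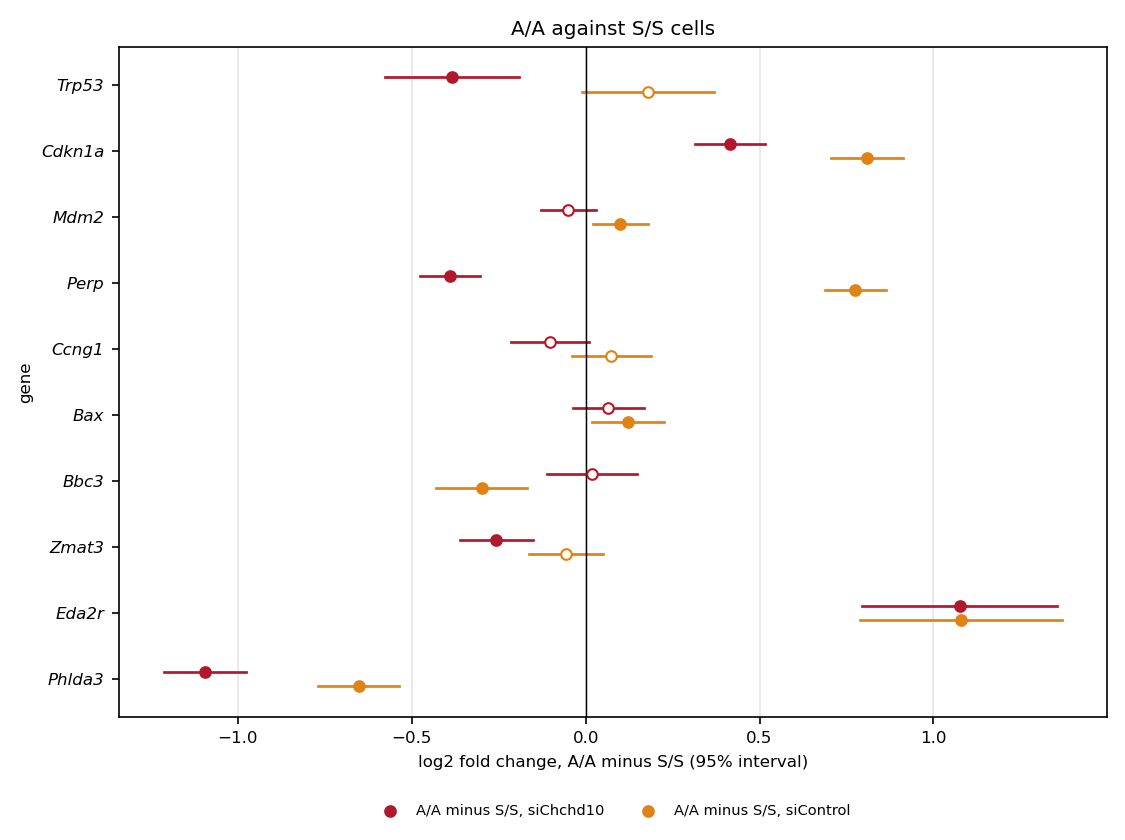
Log2 fold change of each gene in A/A minus S/S cells with siChchd10 (red) and with siControl (orange), with 95% intervals; filled points passed an adjusted p of 0.05. Eda2r lies at 1.08 under both siRNAs, and Perp at -0.39 with siChchd10 and 0.77 with siControl.

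Of the 69 other p53-linked genes, 21 were higher and 34 lower in A/A cells with siChchd10, and 24 were higher and 29 lower with siControl, beside 70.5% and 70.2% of all genes that passed in either direction. Dram1 was 4.35 higher with siChchd10 and 2.81 higher with siControl on the log2 scale. Of the 12 cell death targets, which include Dram1, 3 were higher and 7 lower with siChchd10, against 34.7% and 35.8% of all genes. With siControl 5 were higher and 4 lower, against 35.6% and 34.7%. The lowest log2 differences among them were -3.64 with siChchd10 and -4.36 with siControl. Plk2, a kinase that p53 activates, was 2.68 and 2.04 lower, and Gadd45a, a growth arrest gene, 2.36 and 2.17 lower. Rprm, which encodes the arrest protein reprimo, had 40 counts summed over the A/A siChchd10 libraries and 56 over A/A siControl, and none in the S/S libraries of either siRNA. Among 18 cell cycle genes known to be repressed downstream of p21, 1 was higher and 15 lower in A/A cells with siChchd10, and 1 was higher and 13 lower with siControl, against 34.7% of all genes higher and 35.8% lower with siChchd10 and 35.6% higher and 34.7% lower with siControl. Aurkb, a mitotic kinase, was 0.68 lower with siChchd10, and E2f1, a factor of S phase entry, 0.73 lower with siControl. After knockdown of Chchd10 in S/S cells, 0 of these 18 cell cycle genes rose and 2 fell, against 15% and 13% of all genes. In A/A cells the knockdown raised 1 and lowered 8 of them, against 26.5% and 27.2% of all genes.

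Knockdown of Atf4 was compared with the control shRNA in S/S cells, between groups that also differed in Y-linked RNAs (1.46 to 3.56 CPM in S/S shAtf4 and 111 to 135 CPM in S/S shControl), whose part in the values was not tested. None of the 10 genes passed, against 0.538% of 14697 genes (0.15% higher and 0.388% lower), and 1, Eda2r, had an unadjusted p under 0.05, as had 1549 of the 14697 genes. DESeq2 called 0 of the 10 as well. Same-number shRNA libraries correlated in their deviations from group means, most of all replicate 4 (0.789). Of 12 different-number pairs 6 also exceeded 0.1, so pairing by number is not settled. With the replicate number as a block 2 of the 10 genes rose and 1 fell, against 20.2% of all genes (10.1% higher and 10.1% lower).

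Eda2r measured 12.1, 11.2, 11.7 and 8.05 CPM in S/S shAtf4 and 16.3, 21.2, 17.1 and 12.2 CPM in S/S shControl. All 4 knockdown libraries lay below all 4 controls, as for 3.57% of genes, while 3.22% lay above and 6.79% did not overlap in either direction. Its change was -0.64 (adjusted p = 0.259), and with the block -0.63 (adjusted p = 0.000719). It also passed without S/S shControl replicate 4 (-0.76, adjusted p = 0.0475) and without replicate 4 of both groups (-0.64, adjusted p = 0.0118), where 11.7% of genes passed (5.58% higher and 6.14% lower).

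Perp measured 22.9, 31.02, 25.2 and 46.4 CPM in S/S shAtf4 and 17.2, 23.1, 18.8 and 31.96 CPM in S/S shControl. Each shAtf4 library lay above the shControl library of its number, while the groups overlapped. The change was 0.47 (adjusted p = 0.594) and 0.45 with the block (adjusted p = 0.000660). Bax changed by 0.16 (adjusted p = 0.820), and by 0.17 with the block (adjusted p = 0.0485). Without replicate 4 of both groups neither passed (adjusted p = 0.0806 for Perp and 0.158 for Bax).

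Trp53 measured 28.3, 16.5, 21.4 and 20.1 CPM in S/S shAtf4 and 30.03, 17.4, 25.4 and 19.8 CPM in S/S shControl, a change of -0.11 (95% interval -0.59 to 0.37). Cdkn1a measured 98.5, 103, 98.5 and 169 CPM in S/S shAtf4 and 97.6, 121, 110.3 and 158 CPM in S/S shControl, a change of -0.05 (-0.53 to 0.43). In both genes the groups overlapped, and for Cdkn1a replicate 4 was the highest library of each group. Mdm2, Ccng1, Bbc3, Zmat3 and Phlda3 ran from -0.22 (Bbc3) to 0.15 (Mdm2), with adjusted p from 0.829 to 0.986, and their groups overlapped. Replicate 4 was above replicates 1 to 3 in both groups for 6 of the 10 genes and below them for 2 (Bbc3 and Eda2r). Over all genes these shares were 30.4% and 29.7%. Of 65 other p53-linked genes 0 passed, 11 had an unadjusted p under 0.05, against 1549 of all 14697 genes, and DESeq2 called 3, against 491 of all genes. With the block, where 10.1% of all genes rose and 10.1% fell, 9 rose, among them Tap1 (0.89), a peptide transporter, and 10 fell, among them Gadd45a (-1.31).

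**Figure D4:**
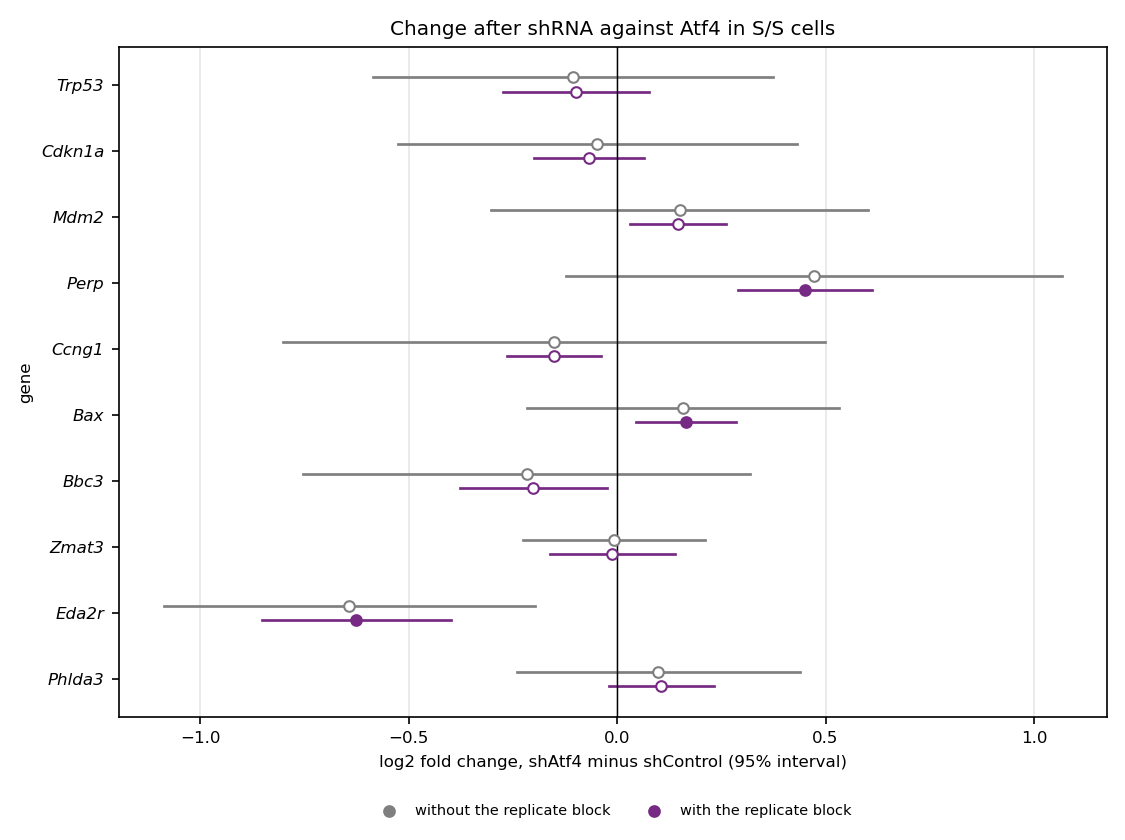
Log2 fold change of each gene after shRNA against Atf4, shAtf4 minus shControl in S/S cells, without (grey) and with (purple) the replicate number as a block, with 95% intervals; filled points passed an adjusted p of 0.05. Perp, Bax and Eda2r are filled with the block, and none is filled without it.

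The control cells of the 2 tables carry the same eIF2α genotype but were scaled separately, so their levels are given with no test. The mean CPM of 9 of the 10 genes was higher in S/S shControl than in S/S siControl, in each case without overlap of libraries, as for 24.7% of 14180 genes tested in both tables. Perp was lower without overlap, as for 26.1%. Eda2r stood at 16.7 CPM in S/S shControl and 1.90 CPM in S/S siControl, a ratio of 8.77, and Cdkn1a at 122 and 30.00 CPM, a ratio of 4.05. Trp53 averaged 23.2 CPM in S/S shControl and 11.5 CPM in S/S siControl, a ratio of 2.01. Perp averaged 22.8 CPM in S/S shControl and 73.5 CPM in S/S siControl, a ratio of 0.310. The median log2 ratio was 0.82 for the 10 genes, 0.21 for 65 other p53-linked genes and 0.00 for all genes. For the 50 p53 targets among those 65, without the regulators, it was 0.36. Of these 50, 46% were higher and 12% lower without overlap. Of the 10 genes 4 were at least 2-fold higher, against 11.4% of all genes, and 1 at least 2-fold lower, against 7.5%. Cdkn2a, whose ARF product stabilises p53, measured 0.0584 to 0.756 CPM in S/S shControl and 194 to 228 CPM in S/S siControl. Within the siRNA table Cdkn2a averaged 160.3 CPM in A/A siChchd10, 185 CPM in A/A siControl, 208 CPM in S/S siChchd10 and 209 CPM in S/S siControl. Table, delivery of the RNA and source of the cells cannot be told apart here.

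**Figure D5:**
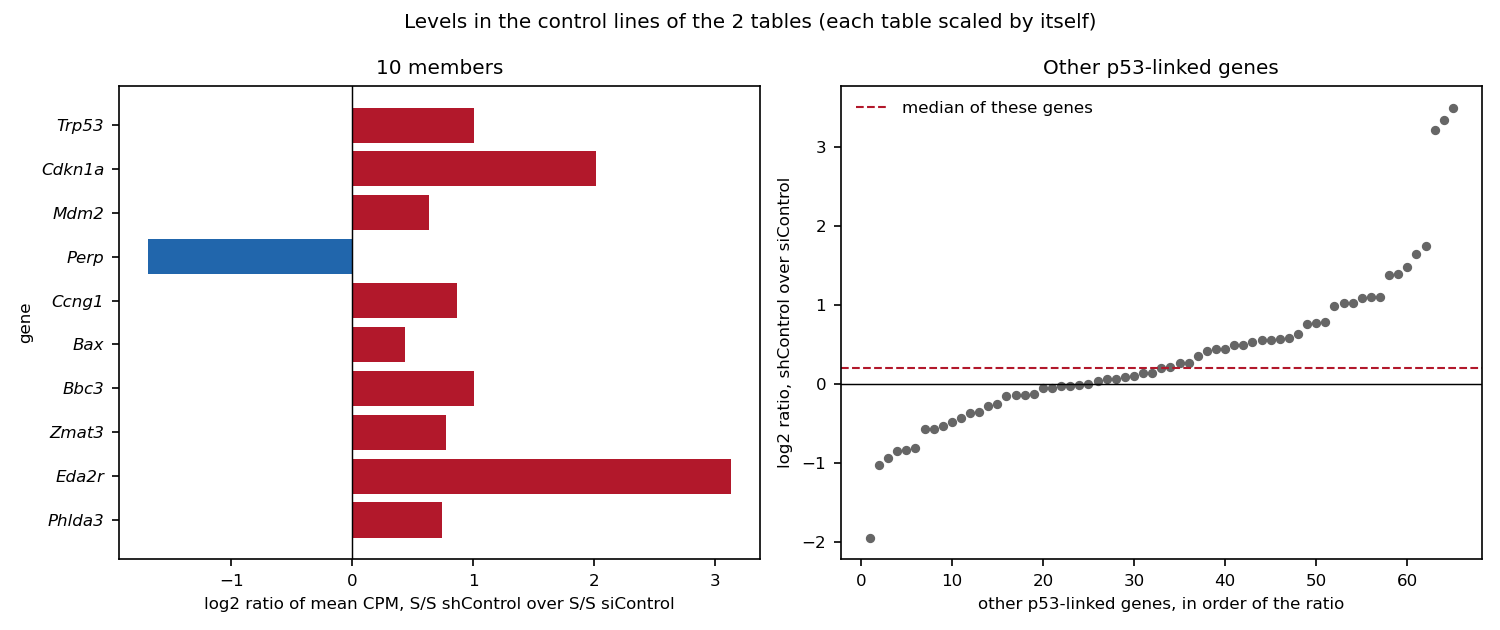
Log2 ratio of mean CPM in S/S shControl over S/S siControl for the 10 genes (left, bars from 0) and for 65 other p53-linked genes in order of the ratio (right, dashed line at their median of 0.21). Perp is the 1 bar below 0, at -1.69.

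Per kilobase of merged exon, Eda2r was lowest, Zmat3 next and Trp53 next to Zmat3 in all 6 groups, while the order of the others differed between groups. Perp, for example, stood at 64.4 CPM per kilobase in A/A siControl, the highest of the 10 there. In S/S shControl Perp stood at 11.7, below Mdm2 at 20.9. In S/S siControl the level per kilobase was 47.9 for Bax, 37.6 for Perp, 33.6 for Ccng1, 32.5 for Phlda3, 13.5 for Mdm2, 8.44 for Cdkn1a, 2.85 for Trp53, 1.83 for Zmat3 and 0.323 for Eda2r, with Bbc3 between Cdkn1a and Trp53. The neighbours Ccng1 and Phlda3 differed by less than their SDs of 2.10 and 2.15.

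Across the 16 siRNA libraries, the gene whose log2 CPM was most like that of Trp53 among 11017 genes was Fam78a (Pearson r = 0.97), followed by Odf2l, Ago3, Trim6 and Akap7 (0.91 to 0.95). For Cdkn1a the most like were Ocln (0.99), Pklr, Depp1, Cidec and Gsta4 (0.98 each). With group means removed, Fam78a was again most like Trp53 (0.96), followed by Trim39, Zcchc4, Prpf39 and Brd8, and Usp30 was most like Cdkn1a (0.93), followed by Dgat2, Rab4b, Ascc1 and Retsat. These are descriptions over libraries that share groups and depth.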

How the data were processed

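RNA from 24 libraries was sequenced; per the labels' protocols it was extracted with Trizol and prepared by a stranded total RNA kit, while the molecule is labelled polyA RNA. Both tables the authors deposited hold raw whole-number counts, 1 row a gene. The submitters' processing notes name mm10 and DESeq2 1.24.0. The aligner, counter, strand setting and annotation: not given in the sources used here. Columns without a sample numbered 0.

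Counts were tested with edgeR 4.0.16 in R 4.3.3: filterByExpr (minimum count 10), TMM scaling, the robust quasi-likelihood test and Benjamini-Hochberg adjustment over all genes of a table, at 0.05. The 8 shRNA libraries and the 16 siRNA libraries were fitted separately, each with 1 term per group. CPM are TMM-scaled, with an exception. RNAs abundant in S/S and nearly missing in A/A siChchd10 libraries were selected and summed on CPM of the unscaled library total. Intervals are 95%. The script was tested on simulated data. In the shRNA table, same-number correlations of deviations from group means were 0.241 to 0.789 (4 of 4 over 0.1), the highest for replicate 4. Different-number correlations ran from -0.586 to 0.314 (6 of 12 over 0.1). S/S shControl replicate 3 was closer to S/S shAtf4 replicate 2 (0.314) than to replicate 3 (0.241), so pairing by number is not settled. Alternatives were DESeq2 1.42.0, its size factors, no filter, fits of the 2 groups alone, a replicate block and leaving out libraries; scalings across tables were chosen after seeing the data.

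The 10 genes and all gene lists were chosen with earlier results of these data known. All 10 genes are named, and from each list up to 2 of the largest rises and falls past the threshold per comparison were eligible; other genes named were chosen after their values were seen. The RNAs abundant in S/S and nearly missing in A/A siChchd10 libraries were selected at 9 pairs of CPM cut-offs. These pairs were chosen after a first pair (at least 50 CPM in S/S, at most 0.2 CPM in A/A siChchd10) selected none. Of the 9 pairs, 2, the first included, select none. The other pairs select 3 to 56 genes, and the range over them is given. Exons are from a GRCm38 annotation.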

Additional observations from a re-analysis of the deposited data

Results flagged for a closer look

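In 8 of 60 groups of 4 libraries 1 library stood apart by Dixon's criterion, where chance flags about 1 in 20. In S/S shAtf4, replicate 4 was high for Cdkn1a (169 CPM), Mdm2 (161 CPM) and Ccng1 (299.9 CPM), and in S/S shControl replicate 4 was high for Ccng1 (336 CPM). Perp was high in A/A siChchd10 replicate 3 (96.2 CPM) and low in S/S siControl replicate 3 (68.3 CPM). Zmat3 was high in A/A siChchd10 replicate 4 (18.9 CPM) and low in A/A siControl replicate 1 (19.2 CPM).

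By the edgeR interaction term, the siChchd10 effect differed between A/A and S/S cells for 7 of 10 genes, against 35.6% of all genes. The differences, A/A minus S/S on the log2 scale, were -0.56 for Trp53, -0.39 for Cdkn1a, -0.15 for Mdm2, -1.16 for Perp, 0.32 for Bbc3, -0.20 for Zmat3 and -0.44 for Phlda3. The calls for Mdm2 and Zmat3 ended with DESeq2 size factors, without the filter on low counts and without some single libraries.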

How the results depend on the processing

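Of 850 recomputed log2 changes of the 10 genes, 753 kept direction and side of the threshold, 41 lost the threshold, 13 gained it and 43 changed sign. For shAtf4, DESeq2 called 491 genes and 3 other p53-linked genes. With the replicate block 2969 genes passed, 2 of the 10 were higher and 1 lower, and 19 other p53-linked genes passed. Leaving out 1 library gave 13 to 536 genes, 0 to 1 of the 10 lower and 0 to 4 other p53-linked genes, the highest counts being those without S/S shControl replicate 4, and leaving out replicate 4 of both groups gave 1726, 1 and 14. The cause was not tested. With DESeq2 size factors 3 of the 10 were higher in A/A siControl than in S/S siControl, against 6259 of all 18138 genes. In the main fit 5 of the 10 were higher, against 6453 of all genes. In the siRNA table numbers did not pair libraries (1 of 24 correlations over 0.1, -0.171 to 0.157); a replicate block there ended the call of the Mdm2 difference (adjusted p = 0.0539). In fits that kept all libraries, sign changes lay near 0. Zmat3 after shAtf4 was at 0.0025 with no filter and 0.0044 with DESeq2. Bax in S/S siChchd10 was at -0.0022 with size factors and with DESeq2. The Eda2r difference was at 0.014 with size factors and with DESeq2, and at 0.0026 with no filter. The other 36 of the 43 sign changes came from leaving out libraries, and not all of those lay near 0. Leaving out libraries gave, for shAtf4, -0.26 to 0.046 for Trp53, -0.28 to 0.11 for Cdkn1a, -0.041 to 0.33 for Mdm2, -0.45 to 0.15 for Ccng1, -0.043 to 0.049 for Zmat3 and -0.0034 to 0.24 for Phlda3. In S/S siChchd10 it gave -0.0091 to 0.13 for Trp53, -0.036 to 0.042 for Bax, -0.065 to 0.0074 for Bbc3, -0.0058 to 0.051 for Zmat3 and -0.041 to 0.036 for Phlda3. The Eda2r difference ran from -0.11 to 0.12, and Bbc3 in A/A against S/S siChchd10 from -0.0080 to 0.063. The cross-table ratios of the 10 genes kept their direction under both other scalings. Depth limits Eda2r most in the siRNA table.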
